A study of Lupinus albus with 12 samples.

Results

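The sequences described here are those that the deposited annotation of white lupin (Lupinus albus) places in the mitochondrial electron transport classes for NADH dehydrogenases and alternative oxidase. The annotation holds 212 of them among 125821 sequences, and 211 of the 212 are in the expression table of 125535. A sequence was kept when it reached 1 RPKM (a read level scaled to the length of a sequence and the size of its library) or more in at least 3 of 12 libraries, which 188 of the 211 did, against 87081 of the whole table. They were then grouped by the role that their descriptions give, so that complex I could be set against the non-phosphorylating alternatives.

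Plant mitochondria oxidise NADH by several routes. Complex I, a large membrane enzyme with a flavin and iron-sulfur arm, a membrane arm and, in plants, gamma carbonic anhydrase subunits, pumps protons while it passes electrons to ubiquinone. Type II NAD(P)H dehydrogenases are single proteins that pass electrons to ubiquinone without pumping protons, NDA on the inner side of the inner membrane and NDB on the outer side, while NDC1 is known in Arabidopsis from both mitochondria and plastids. Alternative oxidase passes electrons from ubiquinol to oxygen, bypassing the later proton-pumping complexes, and is known in plants as a stress-responsive enzyme whose respiration needs less phosphate and ADP than the cytochrome route.

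The study set plants of the variety Ultra without phosphate against plants with it, in roots and in leaves, with 3 biological replicates a group and harvest 14 days after emergence. Deficient plants received 1 mM CaSO4 and sufficient plants 1 mM Ca(H2PO4)2. The 4 groups were deficient roots, sufficient roots, deficient leaves and sufficient leaves; one field of the labels speaks of soil and another of solutions. The deficient root samples are labelled proteoid roots (the dense clusters of short rootlets that lupin forms) and the sufficient ones roots, so root type and supply cannot be told apart in that comparison. RNA selected for poly-A tails was sequenced with 76 cycles, and replicate 1 libraries had a lane each without barcodes while those of replicates 2 and 3 were barcoded and shared lanes.

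One library, replicate 3 of the deficient leaves, was unlike the rest: 70.9% of all its RPKM lay in 20 sequences (4.77% to 18.0% elsewhere), and the median tested sequence had 0.9 RPKM there and 2.1 to 2.7 RPKM in the other 11 libraries. Over all 87081 sequences the median difference between deficient and sufficient leaves was -0.24 on the log2(RPKM + 0.5) scale, and 0.06 without that library; in roots it was 0.00. The root minus leaf medians were 0.42 with deficient supply (0.11 without that library) and 0.19 with sufficient supply. Chlorophyll a/b binding protein sequences (52) summed to 51.6 to 90.5 RPKM in roots and 14859.4 to 62659.0 in leaves, which matches the tissue labels. Sums of the root markers NRT2, ATPT2 and SCARECROW were higher in every root library, while AKT1 overlapped (3.5 to 30.3 RPKM in roots, 3.4 to 17.1 in leaves). The phosphatases PAP10 and PAP17 (11 sequences) summed to 360.9 to 554.2 RPKM in deficient roots against 96.5 to 157.0 in sufficient roots. In leaves they overlapped between supplies (15.8 to 45.7 against 11.2 to 34.3). SPX sequences, another supply marker, also overlapped there (53.7 to 189.6 against 51.8 to 61.3). Read depth is unknown, and in bulk tissue more RNA per cell and more cells of a type cannot be told apart.

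Of the 188 sequences, 83 were assigned to complex I subunits that plants encode in the nucleus: 33 of the flavin and iron-sulfur arm, 13 gamma carbonic anhydrases and 37 accessory subunits. Of the 37, 17 are described only as related to NADH-ubiquinone oxidoreductase and 4 only as NADH:ubiquinone oxidoreductase family proteins. These descriptions name no subunit, so the accessory role of those sequences is an assumption. A further 32 are described as NAD subunits, which plants encode in mitochondrial DNA. The alternatives are 47 sequences, namely 15 alternative oxidases (9 AOX1A, 1 AOX1D and 5 AOX2), 18 internal NDA, 11 external NDB and 3 NDC1. The rest comprise 2 putative oxidoreductases with no subunit named and 24 whose descriptions name other proteins (6 prohibitin ATPHB1, 11 DHHC zinc finger proteins, 3 choline transporter-related and 4 coenzyme-binding proteins). The 23 sequences in the table that missed the filter never exceeded 7.7 RPKM; 10 were nuclear complex I, 8 NAD, 4 NDB and 1 choline transporter-related. Copies and isoforms share a description, and how reads were divided between them is uncertain.

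Phosphorus supply was compared first in roots. None of the 188 sequences passed limma at an adjusted p below 0.05 in deficient against sufficient roots, where 0.279% of all sequences tested did. The count was also 0 with a replicate block (0.364% of all sequences), and 5 had an unadjusted p below 0.05 (4.31% of all sequences), each of nuclear complex I. Within that limit the 83 nuclear complex I sequences shared a direction: 81 were higher in deficient roots, with a median difference of 0.61 on the log2 scale, while 49.8% of all sequences were higher and their median was 0.00. In 52 of the 83 every deficient root library exceeded every sufficient one, a pattern that 6.79% of all sequences showed, and no sequence of the 83 showed the reverse. In 76 of the 83 the deficient library was the higher of its same-numbered pair in all 3 pairs, against 18.9% of all sequences. The median was 0.34 within replicate 1 and 0.74 within replicates 2 and 3, so both sequencing formats gave the same sign, although all sequences together shifted by 0.12 and -0.04 in these formats.

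**Figure D1:**
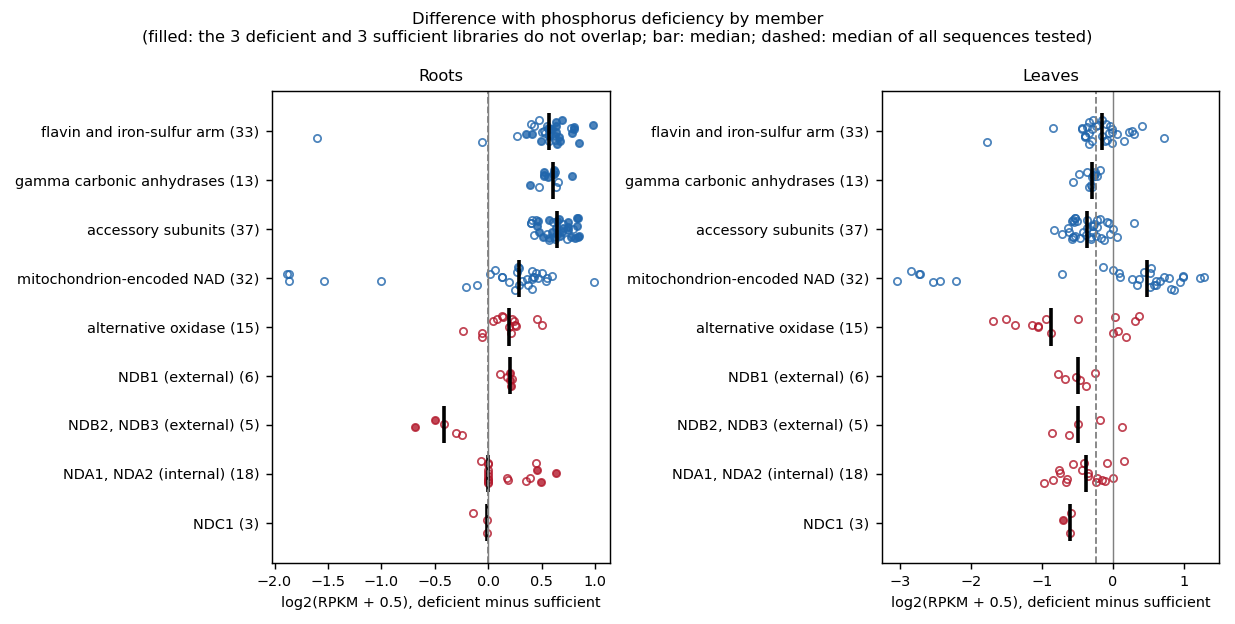
Difference between deficient and sufficient libraries on the log2(RPKM + 0.5) scale for each sequence (points), by role, in roots (left) and leaves (right); filled points are sequences whose 3 deficient and 3 sufficient libraries do not overlap, black bars are medians, and the dashed line is the median of all sequences tested. Nuclear complex I roles lie around 0.57 to 0.64 in roots, NDB2 and NDB3 around -0.42, and alternative oxidase in leaves around -0.87; sequences with other descriptions and the 2 putative oxidoreductases are not drawn.

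The summed level of the 83 nuclear complex I sequences showed the same order. It was 2320.3, 2319.4 and 2380.7 RPKM in the 3 deficient root libraries, against 1860.4, 1408.1 and 1336.5 RPKM in the sufficient ones. The groups did not overlap, and the means were 2340.1 ± 35.1 and 1535.0 ± 284.1 RPKM (SD, n = 3 each), a ratio of 1.52. The nearest sufficient library was replicate 1, the unbarcoded one.

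In the flavin and iron-sulfur arm, which takes electrons from NADH, 31 of 33 sequences were higher in deficient roots, with a median of 0.57, and 19 of them did not overlap between groups. The smallest p of all 188 among the higher ones belonged to FRO1 (LAGI01_57626), an iron-sulfur arm subunit whose Arabidopsis mutant is called frostbite1. It was at 25.7, 38.6 and 35.1 RPKM in deficient roots and 16.4, 16.7 and 16.0 RPKM in sufficient roots. All 3 deficient libraries were above all 3 sufficient ones, and the difference was 0.98 (SE 0.400; limma, unadjusted p = 0.0261, adjusted p = 0.925), with 0.63 in replicate 1 and 1.15 in replicates 2 and 3. All 3 FRO1 sequences showed such a gap, at 0.80 to 0.98. The most abundant sequence of the set, CI51 (LAGI01_32277), the subunit of the arm that binds NADH and flavin, was at 172.8, 129.1 and 129.3 RPKM in deficient roots and 148.0, 80.7 and 81.1 RPKM in sufficient roots. Each deficient library exceeded its same-numbered partner, but the groups overlapped through the sufficient library of replicate 1 (difference 0.52, SE 0.502; limma, adjusted p = 1.0).

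Going against this arm was an EMB1467 sequence (LAGI01_107695), named for the Arabidopsis gene of the large iron-sulfur subunit. It was listed at 0 in all 3 deficient root libraries and at 0, 1.9 and 2.4 RPKM in the sufficient ones, and in leaves it was above 0 only in deficient replicate 3, at 1.7 RPKM. Its root difference was -1.60 (SE 0.633; limma, unadjusted p = 0.022, adjusted p = 0.874). Of the other 8 EMB1467 sequences tested, 7 were higher in deficient roots.

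All 37 accessory subunit sequences were higher in deficient roots, by 0.40 to 0.85 with a median of 0.64, and 25 did not overlap. An NDUFA8 sequence (LAGI01_59715), the 19 kDa accessory subunit, was at 24.1, 21.5 and 23.4 RPKM in deficient roots and 17.0, 11.5 and 10.4 RPKM in sufficient roots. These groups did not overlap (difference 0.83, SE 0.384; limma, unadjusted p = 0.0451, adjusted p = 1.0). A sequence described only as related to NADH-ubiquinone oxidoreductase (LAGI01_73600) was at 17.5, 21.3 and 24.2 RPKM against 12.6, 10.9 and 10.6 RPKM in sufficient roots, a difference of 0.85 (SE 0.376; limma, unadjusted p = 0.0378, adjusted p = 1.0). The B8 subunit (4 sequences) had a gap between groups in all 4; its most abundant sequence (LAGI01_63254) was at 33.2, 50.0 and 58.4 RPKM in deficient roots and 24.7, 30.1 and 31.5 RPKM in sufficient roots. The remaining abundant accessory sequences were LAGI01_56897, at 126.9, 133.5 and 145.4 RPKM against 111.6, 83.8 and 79.5 RPKM in sufficient roots, and LAGI01_56158, at 46.9, 48.1 and 59.3 RPKM against 33.9, 33.6 and 30.3 RPKM. Neither overlapped between groups, whereas LAGI01_56978 did, at 46.7, 76.1 and 87.6 RPKM in deficient roots and 46.3, 52.9 and 51.8 RPKM in sufficient roots.

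The 13 gamma carbonic anhydrase sequences, which build a plant-specific part of the membrane arm, were likewise all higher in deficient roots, by 0.39 to 0.78, and all 13 were higher in each of the 3 pairs. GAMMA CA1 (LAGI01_10670) was at 16.7, 19.4 and 18.5 RPKM in deficient roots and 12.3, 11.1 and 11.8 RPKM in sufficient roots. The groups did not overlap for this sequence, nor for 7 others of the 13.

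Other respiratory classes of the same annotation were set beside these values. In deficient against sufficient roots limma called none of their sequences. Cytochrome c reductase, the complex that takes electrons from ubiquinol in the cytochrome route, had 26 of 26 sequences higher with a median of 0.60 (1 at an unadjusted p below 0.05), and F1-ATPase had 59 of 65 higher with a median of 0.56 (3 at an unadjusted p below 0.05). The medians of succinate dehydrogenase (29 sequences), cytochrome c oxidase (80) and cytochrome c (31) were 0.42, 0.29 and 0.27, with 1, 0 and 2 sequences at an unadjusted p below 0.05. The nuclear complex I median of 0.61 therefore lay close to those of cytochrome c reductase and F1-ATPase, and no test separated these classes.

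Among the alternatives in roots, the 15 alternative oxidase sequences had a median difference of 0.19, with 12 higher and none without overlap between groups; limma called 0 of them, and 0 had an unadjusted p below 0.05. The most abundant was AOX1A (LAGI01_70205), at 51.6, 143.4 and 145.2 RPKM in deficient roots and 66.3, 115.1 and 55.1 RPKM in sufficient roots. The most abundant AOX2 (LAGI01_41588) was at 49.2, 113.0 and 97.2 RPKM in deficient roots and 68.8, 87.4 and 53.6 RPKM in sufficient roots. In both, replicate 1 was lower in deficient roots and replicates 2 and 3 were higher, so the groups overlapped. The AOX1A difference was 0.45 with an SE of 0.751 (limma, adjusted p = 1.0), made of -0.36 in replicate 1 and 0.85 in replicates 2 and 3.

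The 7 most abundant oxidase sequences (2 AOX1A and the 5 AOX2) held 85.7% to 98.6% of the summed alternative oxidase level in each library and varied together, with Pearson r of 0.96 to 1.0 between any pair over the 12 libraries of both tissues, as a description. All 7 were lower in deficient roots in replicate 1, by -0.78 to -0.25, and all 7 were higher in replicates 2 and 3, by 0.54 to 0.88. The summed level was 268.3, 580.9 and 550.6 RPKM in deficient roots and 373.6, 458.8 and 282.5 RPKM in sufficient roots, with means of 466.6 ± 172.4 and 371.6 ± 88.2 RPKM (SD, n = 3 each). The distance between the means was smaller than the SD of the deficient roots, and the direction differed between the sequencing formats.

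The external NDB2 and NDB3 sequences went the other way from complex I. All 5 were lower on average in deficient roots, by -0.69 to -0.25, and limma called 0 of 5 (0 at an unadjusted p below 0.05). NDB2 (LAGI01_26781) was at 32.3, 36.2 and 37.0 RPKM in deficient roots and 42.4, 54.9 and 53.0 RPKM in sufficient roots. NDB2 (LAGI01_77796) was at 17.6, 16.5 and 11.8 RPKM in deficient roots and 26.5, 25.3 and 22.3 RPKM in sufficient roots. In these 2 sequences every deficient library was below every sufficient one, a pattern that 4.39% of all sequences showed, with differences of -0.50 (SE 0.454) and -0.69 (SE 0.596; limma, adjusted p = 1.0 for both).

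The other 3 overlapped between groups because of replicate 1. NDB2 (LAGI01_54425), the most abundant type II sequence, was at 30.5, 50.4 and 50.2 RPKM in deficient roots and 35.1, 70.8 and 58.5 RPKM in sufficient roots. NDB3 (LAGI01_7193) was at 30.2, 41.2 and 44.2 RPKM against 37.7, 61.9 and 56.9 RPKM in sufficient roots. NDB3 (LAGI01_47884) was at 22.6, 35.9 and 33.7 RPKM against 22.6, 48.6 and 41.9 RPKM in sufficient roots. Within each pair the deficient library was the lower one in the first 2 of these sequences, and it was equal in replicate 1 and lower in replicates 2 and 3 in the other. Summed over the 5, the level was 133.2, 180.2 and 176.9 RPKM in deficient roots and 164.3, 261.5 and 232.6 RPKM in sufficient roots (163.4 ± 26.2 and 219.5 ± 49.9, SD, n = 3 each), a ratio of 0.74, while the nuclear complex I ratio was 1.52.

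NDB1, another external enzyme, did not share that direction. Its 6 sequences ranged from 3.4 to 8.5 RPKM in deficient roots and from 2.9 to 8.0 RPKM in sufficient roots, and all 6 were higher in deficient roots, by 0.11 to 0.22. In 3 of them every deficient library exceeded every sufficient one, against 6.79% of all sequences. Limma called 0 of the 6 and none had an unadjusted p below 0.05. For the most abundant, LAGI01_14808, the difference was 0.11 with an SE of 0.387.

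Of the internal NDA2 sequences, 9 were above 0 in roots, and 8 of the 9 were higher in deficient roots in every pair, against 18.9% of all sequences. The most abundant (LAGI01_19983) was at 14.4, 10.2 and 9.3 RPKM in deficient roots and 10.3, 7.7 and 7.4 RPKM in sufficient roots. These libraries overlapped only through sufficient replicate 1, and the difference was 0.39 (SE 0.416; limma, adjusted p = 1.0). The 9 sequences summed to 84.5, 64.5 and 60.7 RPKM in deficient roots and 66.5, 45.1 and 45.6 RPKM in sufficient roots. The 3 NDC1 sequences stayed between 0.6 and 1.8 RPKM in all 6 root libraries, with a median difference of -0.01.

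**Figure D2:**
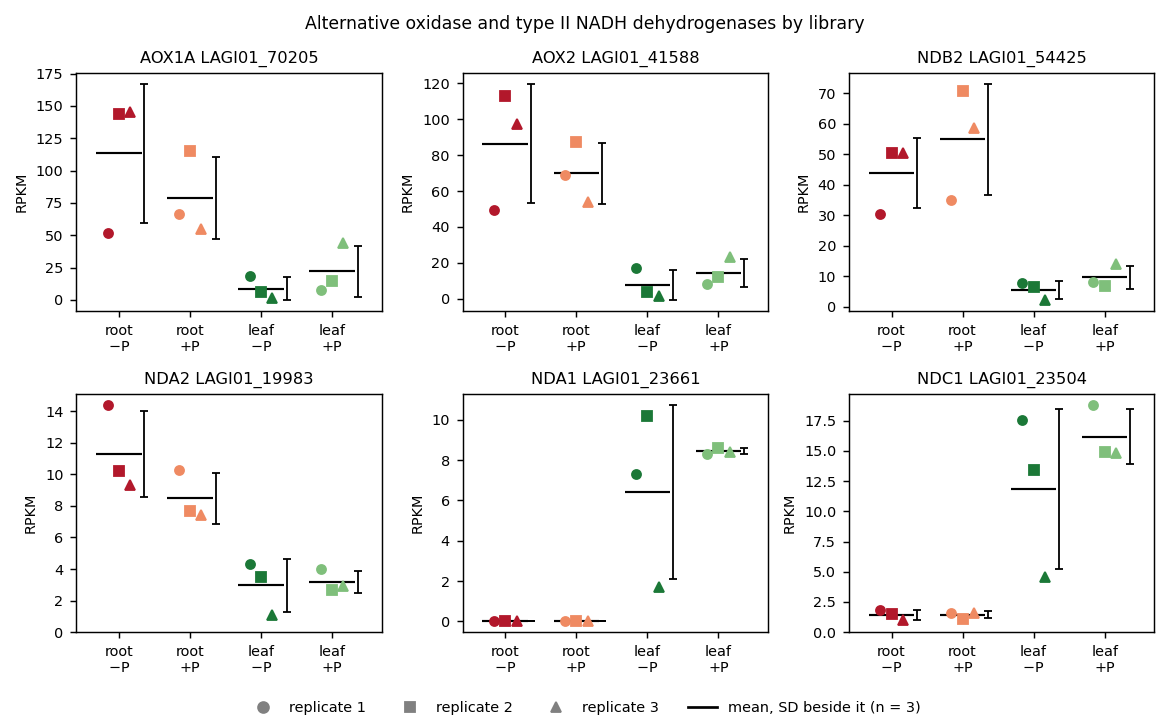
RPKM of 6 alternative oxidase and type II dehydrogenase sequences in each library (points; the symbol gives the replicate), with the mean and SD of the 3 libraries of each group (deficient is -P, sufficient is +P). AOX1A and NDB2 are higher in roots, NDC1 (LAGI01_23504) is at 1.0 to 1.8 RPKM in roots and 4.6 to 18.8 RPKM in leaves, and NDA1 is listed at 0 in every root library.

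In leaves limma again called none of the 188 sequences between deficient and sufficient supply, where it called 0.0276% of all sequences. The count was also 0 with a replicate block (0.181% of all sequences), and 5 had an unadjusted p below 0.05 (7.76% of all sequences). The median difference of the 188 was -0.30, beside -0.24 for all sequences, and 41 of the 188 were higher in deficient leaves, beside 25.6% of all sequences. For nuclear complex I the median was -0.29, but 0.01 after median-of-ratios scaling of the libraries and 0.08 without the deficient leaf library of replicate 3, so it gave no direction apart from that of the whole table. CI51 (LAGI01_32277) shows the values behind this: 125.7, 104.0 and 42.5 RPKM in deficient leaves and 125.8, 55.9 and 45.6 RPKM in sufficient leaves.

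The leaf differences of alternative oxidase changed sign between sequencing formats. AOX1A (LAGI01_70205) was at 18.8, 6.3 and 1.3 RPKM in deficient leaves and 7.7, 14.3 and 44.3 RPKM in sufficient leaves. AOX2 (LAGI01_42589) was at 10.4, 2.0 and 0.9 RPKM in deficient leaves and 5.5, 10.7 and 18.6 RPKM in sufficient leaves. Replicate 1 was higher in deficient leaves and replicates 2 and 3 were lower, in all 7 of the most abundant oxidase sequences: 0.86 to 1.27 in replicate 1 against -2.97 to -1.75 in replicates 2 and 3.

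Pooled, the 7 differences were -1.69 to -0.87, and limma called 0 of them (AOX2 LAGI01_42589, -1.69, SE 0.641, unadjusted p = 0.0175, adjusted p = 0.501). With the 8 barcoded libraries alone, 6 oxidase sequences fell in deficient leaves (limma, adjusted p of 0.0226 or less; AOX1A LAGI01_70205, -2.88, adjusted p = 0.0014), in a fit that called 5215 of all sequences in leaves (5.99%). One of the 2 deficient libraries in that fit is the one that stood apart. Within replicate 2, which does not hold that library, all 7 abundant sequences were also lower in deficient leaves, by -2.16 to -0.65, and within replicate 3 by -4.64 to -2.81. Without deficient leaf replicate 3 the 7 differences over the remaining libraries were -1.06 to -0.19, and the median of all 15 oxidase sequences was -0.19, against -0.87 with every library. The part of the sequencing format and of that library in these values was not tested.

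Limma called 0 of the 32 type II sequences in leaves, and 0 had an unadjusted p below 0.05. NDB2 and NDB3 had a median difference of -0.49, which became 0.07 without deficient leaf replicate 3. NDC1 was at 17.6, 13.4 and 4.6 RPKM in deficient leaves and 18.8, 14.9 and 14.8 RPKM in sufficient leaves (LAGI01_23504; difference -0.61, SE 0.428; limma, adjusted p = 0.762). The deficient library was the lower one in all 3 pairs for each of the 3 NDC1 sequences, where 15.3% of all sequences showed that, and their median was -0.61 with every library and -0.11 without deficient replicate 3.

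The difference between the root and the leaf response was tested directly. Limma called 0 of the 188, where it called 0.0597% of all sequences. The count was 0 with a replicate block (0.0827% of all sequences), and 11 had an unadjusted p below 0.05 (5.93% of all sequences). The nuclear complex I median of this difference was 0.88, with 82 of 83 above 0, beside 0.27 and 67.5% for all sequences; it was 0.55 (all sequences -0.06) without deficient leaf replicate 3.

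Roots were then set against leaves at each supply. With deficient supply, root minus leaf, limma called 81 of the 188 (69 higher in roots, 12 lower) where it called 42.2% of all sequences (29.0% higher, 13.2% lower). With sufficient supply it called 41 (29 higher, 12 lower) where it called 42.0% of all sequences (24.1% higher, 17.8% lower). Without deficient leaf replicate 3 the counts were 80 with deficient supply (42.1% of all sequences) and 55 with sufficient supply (49.9% of all sequences). The share of the 188 was close to the background with deficient supply and below it with sufficient supply, and the calls fell unevenly over the roles.

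**Figure D3:**
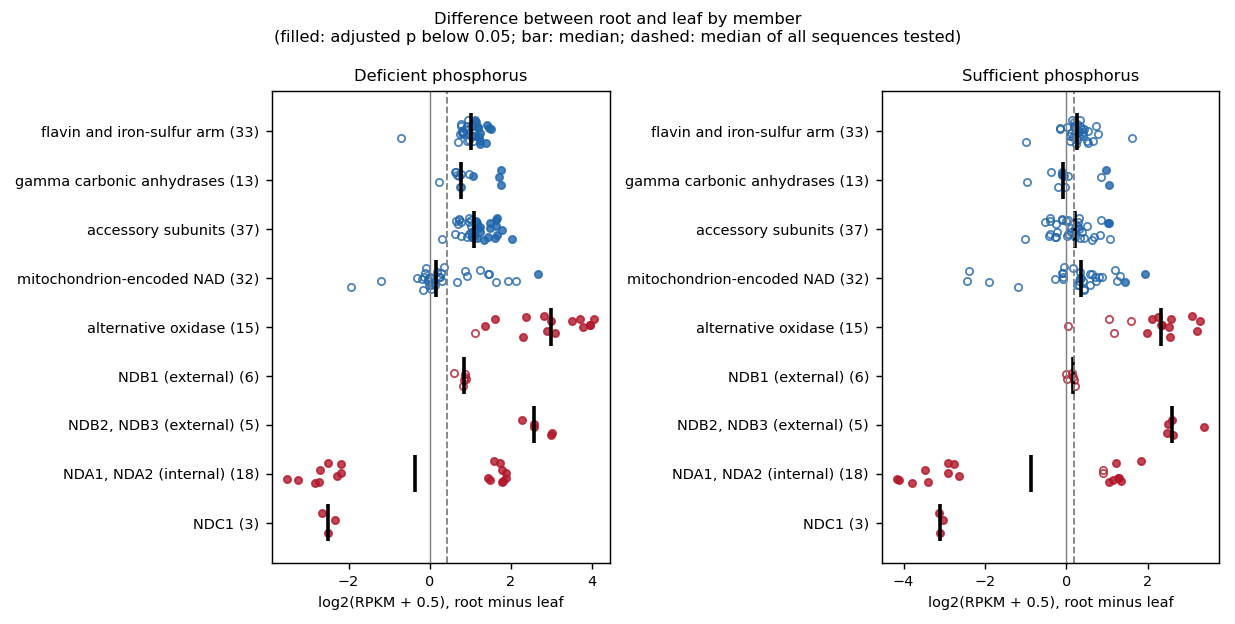
Root minus leaf difference on the log2(RPKM + 0.5) scale for each sequence, by role, with deficient supply (left) and sufficient supply (right); filled points have a limma adjusted p below 0.05, black bars are medians, and the dashed line is the median of all sequences tested. Alternative oxidase, NDB2 and NDB3 lie to the right, NDC1 to the left, and the 18 NDA sequences split into 9 on each side; sequences with other descriptions are not drawn.

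Of the 15 alternative oxidase sequences, 14 rose in roots against leaves with deficient supply (median 3.00) and 11 with sufficient supply (median 2.32). Limma called 29.0% and 24.1% of all sequences higher in roots at these supplies, and the medians of all sequences were 0.42 and 0.19. The 15 include AOX1D and 5 low AOX1A sequences, described below, that passed the filter through roots alone. AOX1A (LAGI01_70205), with 51.6 to 145.2 RPKM in the 6 root libraries and 1.3 to 44.3 RPKM in the 6 leaf libraries, differed by 4.06 with deficient and 2.10 with sufficient supply (SE 0.751 for both; limma, adjusted p = 0.000363 and 0.0327). Within replicate 1 these differences were 1.43 and 3.03, and within replicates 2 and 3 they were 5.37 and 1.64. Summed over the 15 the root mean was 10.44 times the leaf mean with deficient supply and 4.46 times with sufficient supply. The deficient ratio was 26.9 without deficient leaf replicate 1, and within the 3 same-numbered pairs it was 2.7, 22.1 and 65.5, so its size turned on which leaf library entered, while roots were higher in each pair.

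A set of 5 low AOX1A sequences behaved differently from the abundant ones, being nearly flat within each organ; these were grouped after their values were seen. They ran from 1.9 to 6.9 RPKM over the 6 root libraries and from 0.0 to 0.6 RPKM over the 6 leaf libraries. They thus passed the filter through roots alone. Their organ differences were in part fixed by that filter and by the grouping, so the p-values below lend no separate support. The clearest, LAGI01_60083, was at 5.1, 4.7 and 5.4 RPKM in deficient roots and 4.8, 4.8 and 5.1 RPKM in sufficient roots. In leaves it was at 0.3, 0.2 and 0.1 RPKM with deficient supply and 0.2, 0.0 and 0.0 RPKM with sufficient supply. Its root minus leaf difference was 3.00 with deficient and 3.27 with sufficient supply (SE 0.297 for both; limma, adjusted p = 5.48e-07 and 1.71e-07), and no oxidase phosphorus difference in roots was closer to 0 than its 0.04. AOX1A LAGI01_40332 rose in roots with deficient supply, by 1.36, and differed by 0.04 with sufficient supply (limma, adjusted p = 0.0275 and 0.957); the difference of the 2 was not called (limma, adjusted p = 0.854). AOX1D (LAGI01_72792) was listed at 0 in all 6 leaf libraries and reached 2.0 RPKM in roots, with no call.

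All 5 NDB2 and NDB3 sequences rose in roots against leaves at both supplies, and none of the 6 NDB1 sequences was called at either. Of all sequences, 29.0% were called higher in roots with deficient supply and 24.1% with sufficient supply. NDB2 (LAGI01_54425) was at 30.5 to 70.8 RPKM in roots and 2.1 to 13.9 RPKM in leaves, differing by 3.02 with deficient and 2.46 with sufficient supply (SE 0.490 for both; limma, adjusted p = 0.000107 and 0.000611), with 1.90 and 2.03 in replicate 1 and 3.57 and 2.67 in replicates 2 and 3. NDB1 sequences lay between 2.9 and 8.5 RPKM in roots and, without deficient replicate 3, between 2.3 and 8.2 RPKM in leaves. With deficient supply the 6 NDB1 sequences had a median difference of 0.85. Every root library was above every leaf library in all 6, where 33.1% of all sequences showed that. An unadjusted p below 0.05 was found in 5 (49.7% of all sequences), and 2 were called with the replicate block (46.2% of all sequences). With sufficient supply their median was 0.15, none had an unadjusted p below 0.05 (49.0% of all sequences) and none was called with the block (45.9%). For NDB2 and NDB3 the medians were 2.57 with deficient and 2.60 with sufficient supply, and their distance from those of NDB1 has no test.

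The 18 NDA sequences split by organ. The 3 NDA1 and 6 of the 15 NDA2, 9 in all, were listed at 0 in all 6 root libraries and above 0 in all 6 leaf libraries, a pattern that 1.38% of all sequences showed; no other member did. Limma called all 9 lower in roots at both supplies. These calls restate the pattern that picked the 9, which passed the filter through leaves alone, and lend it no separate support. They ran from 0.7 to 10.2 RPKM over the leaves, and the most abundant NDA1 (LAGI01_23661, chosen after its values were seen) was at 7.3, 10.2 and 1.7 RPKM in deficient leaves and 8.3, 8.6 and 8.4 RPKM in sufficient leaves. The other 9, all NDA2, ran from 0.4 to 14.5 RPKM in roots and from 0.0 to 4.4 RPKM in leaves. Limma called 9 of these higher in roots with deficient supply (29.0% of all sequences) and 7 with sufficient supply (24.1% of all sequences). The split was made from the same values, so these calls are no separate support for it. NDA2 LAGI01_19983 differed by 1.89 with deficient and 1.28 with sufficient supply (SE 0.416 for both; limma, adjusted p = 0.00158 and 0.0201). Sequences with the one name NDA2 thus fell on opposite sides, and when all 15 were summed the difference was 0.12 with sufficient supply (limma, adjusted p = 0.867).

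The 3 NDC1 sequences fell in roots against leaves, with medians of -2.51 with deficient and -3.11 with sufficient supply. Limma called 13.2% and 17.8% of all sequences lower in roots at these supplies. NDC1 LAGI01_23504 was at 1.8, 1.5 and 1.0 RPKM in deficient roots, against 17.6, 13.4 and 4.6 RPKM in deficient leaves. In sufficient roots it was at 1.6, 1.1 and 1.6 RPKM, against 18.8, 14.9 and 14.8 RPKM in sufficient leaves. No root library reached a leaf library at either supply (differences of -2.51 and -3.11, SE 0.428 for both; limma, adjusted p = 0.000166 and 1.63e-05).

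Of the nuclear complex I sequences, 40 of the 83 rose in roots with deficient supply (median 1.04) and 4 with sufficient supply (median 0.22). Limma called 29.0% and 24.1% of all sequences higher in roots at these supplies, and the medians of all sequences were 0.42 and 0.19. The nuclear complex I medians lay below those of alternative oxidase and of NDB2 and NDB3, but not below those of NDB1 (0.85 and 0.15), and no test separated the roles. The 4 called with sufficient supply were the GAMMA CA1 sequences LAGI01_10670 and LAGI01_18856, a complex 1 (LVR) family sequence (LAGI01_61117) and an NADH:ubiquinone oxidoreductase family sequence (LAGI01_61403), with differences of 0.97, 1.05, 1.04 and 1.02 (limma, adjusted p of 0.0379 to 0.0491). GAMMA CA1 LAGI01_18856 was at 25.4, 30.6 and 29.7 RPKM in deficient roots and 11.0, 11.0 and 4.3 RPKM in deficient leaves. With sufficient supply it was at 20.7, 20.2 and 24.2 RPKM in roots and 12.6, 10.3 and 8.1 RPKM in leaves. The largest called complex I difference with deficient supply among the nuclear sequences was 2.02, in an oxidoreductase-related sequence (LAGI01_31853; SE 0.444; limma, adjusted p = 0.00158), at 51.7, 23.9 and 21.5 RPKM in deficient roots and 8.4, 10.3 and 3.9 RPKM in deficient leaves.

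**Figure D4:**
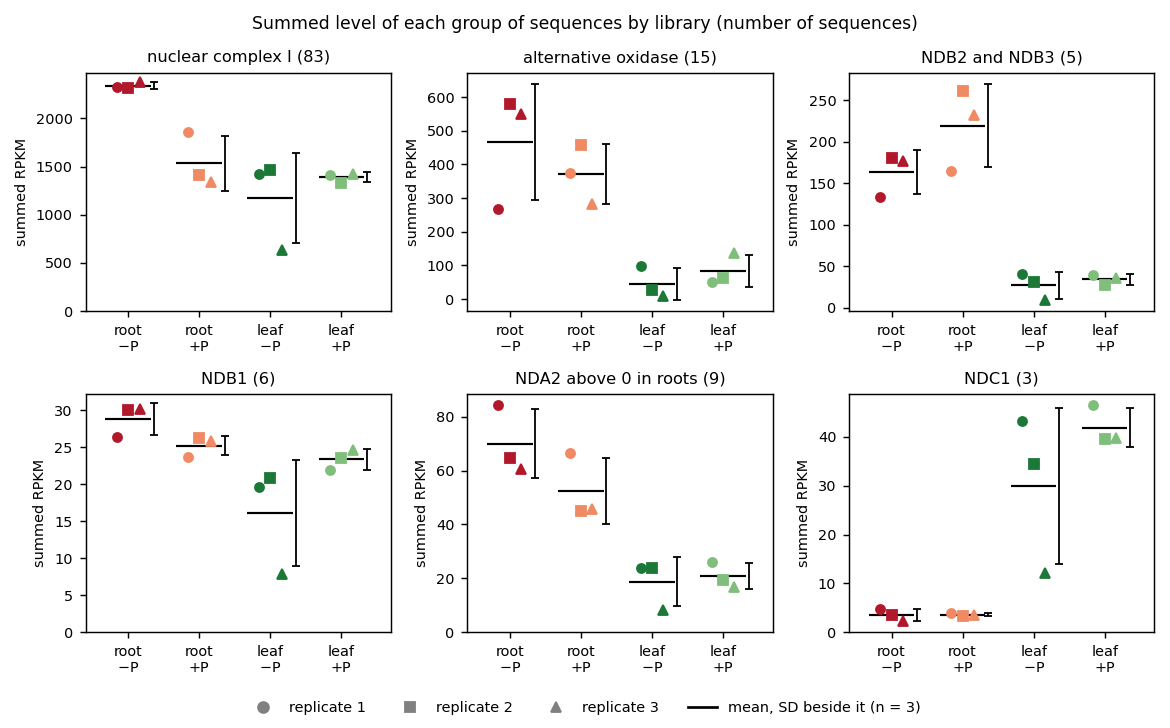
Summed RPKM of each group of sequences in each library (points; the symbol gives the replicate), with the mean and SD of the 3 libraries of a group (deficient is -P, sufficient is +P) and the number of sequences in brackets. Nuclear complex I is highest in deficient roots (2319.4 to 2380.7), NDB2 and NDB3 average 163.4 in deficient roots and 219.5 in sufficient roots, and NDC1 is highest in leaves (12.1 to 46.5).

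The balance of the 2 routes was expressed as the log2 ratio of the summed alternatives (47 sequences) to the summed annotated complex I class (30 sequences), per library, and carries no test. It was -0.34, 0.49 and 0.36 in deficient roots and 0.24, 0.75 and 0.25 in sufficient roots, so the groups overlapped. It was -0.68, -1.19 and -2.03 in deficient leaves and -0.89, -1.12 and -0.95 in sufficient leaves. The means were 0.17 ± 0.45 and 0.42 ± 0.29 in deficient and sufficient roots, and -1.30 ± 0.68 and -0.99 ± 0.12 in deficient and sufficient leaves (SD, n = 3 each). The supply difference of -0.25 in roots was smaller in size than either SD. That of -0.31 in leaves was smaller than the 0.68 of deficient leaves but larger than the 0.12 of sufficient leaves. The leaf value became 0.05 without deficient replicate 3. Roots exceeded leaves by 1.44 on this scale, 1.25 without that library, but by 0.22 when the ratio was taken as a mean of log2 values, which weights every sequence alike. In the summed ratio the lowest root library (-0.34) lay above the highest leaf library (-0.68).

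The annotated complex I class holds 5 NAD1 sequences and 6 with other descriptions and none of the flavin and iron-sulfur arm, so the ratio was also taken over the 83 nuclear subunits, an alternative chosen after seeing the data. The supply difference was then -0.52 in roots and -0.48 in leaves, and the root minus leaf difference 1.28. This ratio was -2.17, -1.43 and -1.54 in deficient roots and -1.56, -0.82 and -1.18 in sufficient roots, so the groups overlapped. For NDB2 and NDB3 over nuclear complex I the log2 ratios were -4.12, -3.69 and -3.75 in deficient roots and -3.50, -2.43 and -2.52 in sufficient roots. All 3 deficient libraries were below all 3 sufficient ones, with a difference of -1.04 (-0.62 in replicate 1 and -1.24 in replicates 2 and 3), while in leaves it was -0.22. NDB2 and NDB3 were lower and nuclear complex I higher in these same deficient roots, so the root gap follows from the choice of lists.

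The 32 NAD sequences were set apart because they moved with the library more than with the groups. Of these, 8 (3 NAD1, 3 NAD4 and 2 NAD5) were listed at 0 in all 4 replicate 1 libraries and above 0 in at least 6 of the other 8, a pattern that 0.255% of all sequences showed. NAD1 (LAGI01_72238) was at 0, 4.2 and 18.4 RPKM in deficient roots and 0, 53.6 and 77.3 RPKM in sufficient roots. In leaves it was at 0, 0 and 2.8 RPKM with deficient supply and 0, 16.1 and 55.2 RPKM with sufficient supply. NAD4 (LAGI01_33892) was at 0, 1.9 and 12.3 RPKM in deficient roots and 0, 33.9 and 41.8 RPKM in sufficient roots.

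NAD1 LAGI01_72238 and NAD4 LAGI01_33892 were lower in deficient roots within replicates 2 and 3 and could show nothing in replicate 1. Limma over all libraries gave -1.86 for NAD4 LAGI01_33892 (SE 1.62, adjusted p = 1.0). With the barcoded libraries alone, 3 of the 8 (these and NAD5 LAGI01_29791) fell in deficient roots, by -2.83 to -2.78 (limma, adjusted p of 0.00801 to 0.0324). That fit called 442 of all sequences in roots (0.508%). The 8 were not alike: NAD1 LAGI01_58605 was at 0, 8.1 and 1.2 RPKM in deficient roots and 0, 2.1 and 1.9 RPKM in sufficient roots, but at 0, 0 and 4.4 RPKM in deficient leaves and 0, 11.0 and 79.2 RPKM in sufficient leaves.

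**Figure D5:**
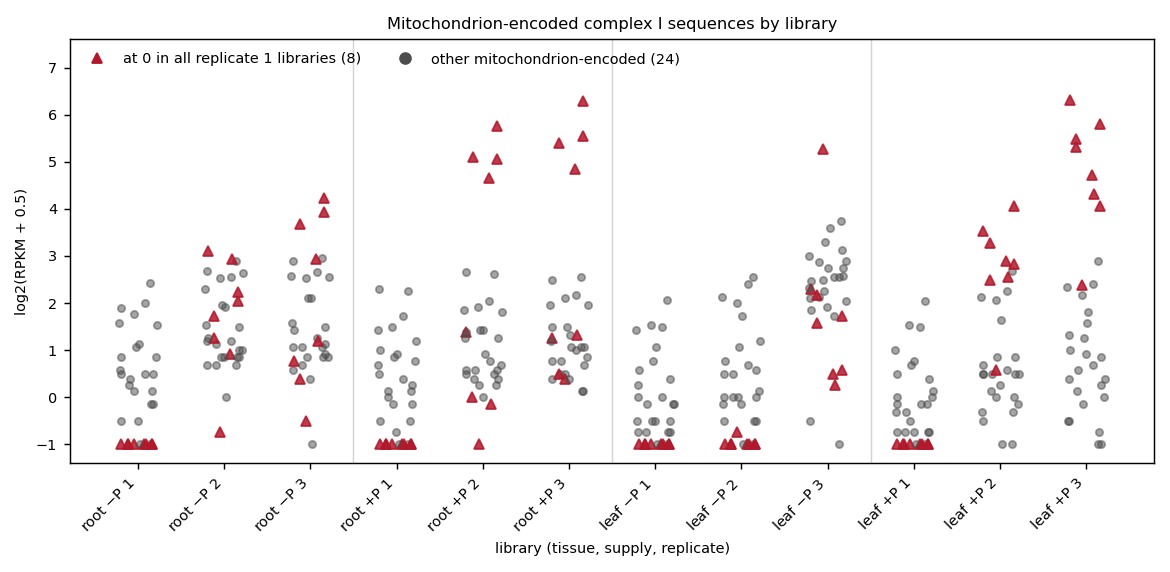
Level on the log2(RPKM + 0.5) scale of each of the 32 NAD sequences in each of the 12 libraries (deficient is -P, sufficient is +P; the last digit is the replicate). Triangles are the 8 sequences listed at 0 in all replicate 1 libraries, where they lie at the bottom of the axis, and circles are the other 24, of which 19 have their highest value in deficient leaf replicate 3.

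In 20 of the 32 NAD sequences the highest of the 12 libraries was deficient leaf replicate 3, where 0.39% of all sequences peaked. NAD6 (LAGI01_54508, chosen after its values were seen) reached 12.8 RPKM there. NAD2 (LAGI01_68203), a membrane arm subunit, was at 0.2, 0.2 and 8.3 RPKM in deficient leaves and 0.1, 0.5 and 0.0 RPKM in sufficient leaves, and NAD3 (LAGI01_26945) at 0.4, 1.8 and 6.9 RPKM against 0.6, 0.9 and 0.8 RPKM. One library thus made both leaf differences, 1.28 and 0.98 (limma, unadjusted p = 0.0862 and 0.0972). The part of poly-A selection, lane format and that library in the NAD values was not tested.

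Against this, NAD6 (LAGI01_2242) kept an organ difference in every library. It was at 3.2, 5.9 and 6.9 RPKM in deficient roots and 0.5, 0.5 and 0.2 RPKM in deficient leaves. With sufficient supply it was at 4.4, 5.8 and 5.1 RPKM in roots and 0.4, 0.9 and 2.0 RPKM in leaves. The differences were 2.66 and 1.93 (SE 0.393 for both, limma adjusted p = 4.19e-05 and 0.000739). In leaves LAGI01_2242 reached 1 RPKM only in sufficient replicate 3, so it passed the filter through roots alone. Its organ differences were in part fixed by that filter, and these p-values lend no separate support. NAD2 (LAGI01_8173) was the only other NAD sequence called between organs, at 1.43 with sufficient supply (limma, adjusted p = 0.0469).

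Sequences with the pattern most like the leading alternatives were sought by Pearson correlation over the 12 libraries among 61500 sequences with an informative description, and the values are a description across both organs. The 5 closest to AOX1A (LAGI01_70205) were ATMPK3, a mitogen-activated protein kinase (r = 0.99), AOX2 LAGI01_8910 (0.99), AOX2 LAGI01_41588 (0.987), a harpin-induced protein-related sequence (0.987) and the protein kinase VIK (0.986). The 5 closest to NDB2 (LAGI01_54425) were an embryo-specific protein-related sequence, an alpha/beta fold hydrolase and a zinc ion binding protein (0.994 each), RAN1 (0.993) and a putative choline kinase (0.992). No alternative oxidase or type II dehydrogenase was among the 5 closest to NDB2.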

How the data were processed

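Poly-A RNA of 12 libraries was sequenced on an Illumina Genome Analyzer, per the labels' protocols, and Bowtie was used per the submitters' processing notes; how reads were counted and divided between copies was not given in the sources used here. The values the authors deposited were taken to be RPKM, a unit the labels and files do not name, so depth is unknown and no counting interval is given. Names and classes come from the deposited annotation, and roles were assigned from its descriptions.

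Values were transformed to log2(RPKM + 0.5), which understates the change of low sequences, with no further scaling. Under R 4.3.3, limma 3.58.1 (trend option on) modelled the 4 group means from the 12 libraries and 87081 sequences, with Benjamini-Hochberg adjustment over all of them; a call is an adjusted p below 0.05. A planned count-based test was not used, because the values are not counts. The labels give 3 biological replicates a group. Each p-value sets a difference between group means against a spread shared by the 4 groups and moderated over all sequences. That spread also holds the sequencing format and the deviating leaf library.

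Same-numbered deficient and sufficient libraries deviated from their group means with r = 0.751, 0.399 and 0.644 in roots and 0.237, 0.237 and 0.126 in leaves. Differently numbered leaf pairs gave -0.301 to 0.106. In roots, replicate 2 with replicate 3 gave 0.472 and 0.441, above the 0.399 of replicate 2, and replicate 1 with the others gave -0.706 to -0.496. The root values set replicate 1 apart and do not establish a pairing by number. The number was used as a block in an alternative fit. Further alternatives were pseudocounts, filters, scalings, left-out libraries, barcoded libraries alone and sums per description.

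Named were the 12 most abundant alternative oxidase and the 12 most abundant type II sequences and, of the rest, the 5 most abundant, the 3 smallest p in each direction of each phosphorus response and up to 5 calls of each direction and contrast. The members and lists were chosen with earlier results of these data known. The procedure was tested on simulated data: it recovered the direction and size of changes, made few false calls and missed many of the changes made. A count of 0 calls therefore does not show that levels were equal. The changes had a single size, larger than the nuclear complex I median in roots, and lay in sequences of below-median spread. Noise was drawn independently for each library, so the sequencing format and the deviating leaf library were not simulated. A minimum for the share of changes called was dropped after it passed or failed with the random seed. Figures were drawn with matplotlib 3.10.9.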

Additional observations from a re-analysis of the deposited data

How the results depend on the processing

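Direction and call held for most values. Of 80 single-sequence results, 31 were called; none of these reversed under any alternative run, and 9 lost their call under at least 1. No member was called between supplies in the fit without or with a replicate block, and the block gave 98 calls between organs with deficient supply (46.2% of all sequences) and 49 with sufficient supply (45.9%), against 81 and 41 without it. With the barcoded libraries of replicates 2 and 3 alone, 4 members were called between supplies in roots (all lower: 3 NAD sequences and EMB1467), 16 in leaves (2 higher, 14 lower) and 8 for the difference of the responses, which is 2.13%, 8.51% and 4.26% of the 188, beside 0.508%, 5.99% and 1.79% of all sequences; the cause was not tested. That fit has fewer libraries, and it leaves out the replicate 1 libraries in which these NAD sequences are listed at 0.

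Leaving out each library in turn gave 0 to 3 calls in leaves (0.0% to 1.71% of all sequences). The 3 (NAD1 LAGI01_58605, NAD5 LAGI01_73218 and NAD4 LAGI01_82700) came without sufficient leaf replicate 1, where 1.71% of all sequences were called, beside 1.6% of the 188. Between organs the counts were 56 to 103 with deficient and 29 to 55 with sufficient supply, or 29.8% to 54.8% and 15.4% to 29.3% of the 188, beside 32.4% to 42.7% and 33.8% to 49.9% of all sequences. Summed per description, which leaves 38 descriptions, 16 were called between organs with deficient and 6 with sufficient supply. The share of all descriptions called in that fit was not taken, so these counts cannot be set against a background. The log2 ratio of alternatives to complex I ranged from -0.40 to 0.01 in roots, -0.62 to 0.05 in leaves and 1.25 to 1.59 for root minus leaf when 1 library was left out. With alternative oxidase alone, chosen after seeing the data, the leaf value was -0.92 and root minus leaf 2.67; as a mean of log2 values root minus leaf was 0.22.

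The 24 reversals were all of uncalled differences near 0, most of them with 1 library left out. Over those left-out libraries the root difference between supplies ran from 0.0 to 0.25 for NDB1 LAGI01_14808, -0.38 to 0.12 for NDC1 LAGI01_21806, -0.15 to 0.16 for NDC1 LAGI01_23504 (0.0 after quantile normalization) and -0.14 to 0.11 for NDC1 LAGI01_44226 (0.02 after quantile normalization). It ran from -0.22 to 0.56 for AOX1A LAGI01_40332, 0.0 to 0.09 for AOX1A LAGI01_60083, 0.0 to 0.65 for AOX2 LAGI01_42589, -0.06 to 0.48 for AOX2 LAGI01_64621, -0.06 to 0.51 for AOX2 LAGI01_80436 and -0.01 to 0.58 for AOX2 LAGI01_8910. Between organs with sufficient supply it ran from -0.15 to 0.1 for NDB1 LAGI01_14808 and -0.25 to 0.52 for AOX1A LAGI01_40332 (-0.07 after either scaling).

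Limits are the unnamed unit, the unknown depth and 3 libraries a group.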
